A study of Saccharomyces cerevisiae with 4 samples.

Results

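The galactose permease gene GAL2 and 9 hexose transporter genes of the HXT family were followed in Saccharomyces cerevisiae ATCC 4126, a culture collection strain of baker's yeast. One medium was YP, a rich broth, with galactose, and the other was YP with glucose. Cells were harvested for total RNA once the cultures reached an optical density of 1.0. Each of 4 RNA samples was read on 1 Affymetrix yeast array. The labels distinguish 2 galactose samples, B and C, and 2 glucose samples, A and B, without saying whether a letter is a culture of its own, so the p-values measure a spread between samples that may be only technical. Strain, broth and harvest density were the same in both media, and no source used here gives the concentration of either sugar at harvest.

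The members were the probe sets to which the platform annotation assigns GAL2, HXT1 to HXT8 or HXT10 as the only gene symbol. Each gene had exactly 1 such probe set, so there were 10 member genes among 5656 genes with a probe set of their own. Intensities under 18.5, the 25th percentile of all intensities, were taken as background and set to that floor. On this scale 7 members lay above the floor on all 4 arrays, 2 (HXT1 and HXT8) on some arrays, and 1 (HXT10) on none. The 9 members above the floor on at least 1 array were tested, among 7302 probe sets. The array medians ran from 108 to 117. Precision is limited by having 2 arrays per medium.

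Yeast takes up hexoses by facilitated diffusion through a family of related membrane permeases. Low-affinity members serve when glucose is plentiful and high-affinity members when it is scarce. Transcription of several HXT genes is held down by the repressor Rgt1, which glucose relieves through the sensors Snf3 and Rgt2. For high-affinity members it is also held down by Mig1 when glucose is abundant. GAL2, whose product carries galactose and can also carry glucose, is known as a target of the activator Gal4.

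GAL2 was high on galactose and near background on glucose, while 6 of the 9 HXT genes had lower signal on galactose on every array. HXT4 and HXT2 fell past the threshold of the test. HXT1, HXT3, HXT6 and HXT7 were lower without passing it, and HXT5 differed more between arrays of one medium than between the media. HXT8 and HXT10 were at background. By limma with Benjamini-Hochberg adjustment over all tested probe sets, 1 of 9 tested members was called higher, against 0.794% of all tested probe sets, and 2 were called lower, against 0.0411%. Both galactose arrays lay below both glucose arrays for 6 of the 9, against 22.1% of all tested probe sets, and above them for 1, against 17.0%. The 6 include both HXT6 and HXT7, whose probe sets cross-hybridise and are not separate evidence. The members form a family chosen with earlier results of these data known, so these shares are given side by side as a description. Arrays average over the culture, so fewer cells with a transcript and less transcript per cell cannot be told apart.

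**Figure D1:**
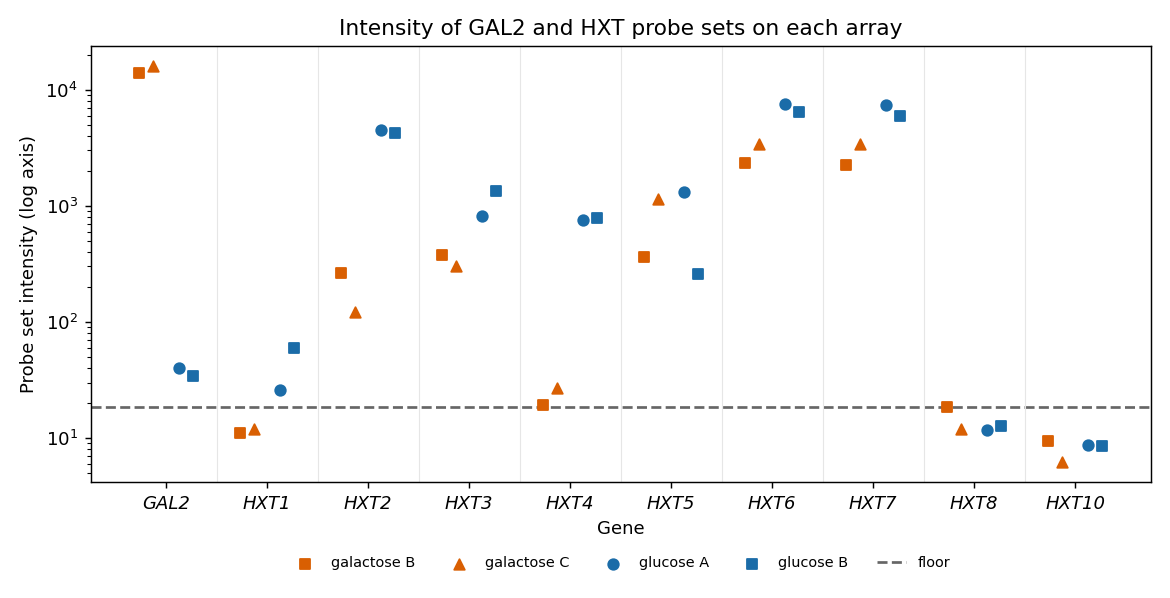
Deposited intensity (log axis) of each member's probe set on the 4 arrays; orange marks are galactose arrays, blue marks glucose arrays, and the dashed line is the floor of 18.5. GAL2 lies far higher on galactose, HXT1, HXT2, HXT3, HXT4, HXT6 and HXT7 lie lower on both galactose arrays, the media overlap for HXT5, and HXT8 and HXT10 stay at or under the floor apart from 1 HXT8 value of 18.5.

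GAL2 (YLR081W) stood at 13876 and 16114 on galactose B and C, against 39.8 on glucose A and 34.1 on glucose B. The media were far apart, and the arrays of each medium differed by 1.16-fold in galactose and 1.17-fold in glucose. The log2 difference was 8.66 ± 0.24 (SE; adjusted p = 0.00192, limma), which is a ratio of 406 with a 95% interval of 265 to 622. On glucose the GAL2 signal stood above the floor on both arrays but in the lower part of the array, at percentiles of 34.5 and 33.1, so the ratio depends on how low signals are treated. It was at least 245 with the floor at the 40th percentile, under which both glucose values fall, and 270 with the 25th percentile added as a pseudocount in place of a floor. Over 11 other settings of the fit the adjusted p of GAL2 ran from 0.000935 to 0.0354.

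HXT4 (YHR092C), a high-affinity transporter gene known to be induced at low glucose, had intensities of 19.3 and 27.1 on galactose B and C, against 752 and 782 on glucose A and B. Both galactose values were close to the floor, and the glucose arrays differed by only 1.04-fold. The gene fell by 5.07 ± 0.29 on the log2 scale (SE; adjusted p = 0.0210, limma), a ratio of 33.6 with a 95% interval of 19.9 to 56.7. With galactose this near background, the ratio was at least 12.6 with the floor at the 40th percentile, under which both galactose values fall, and 18.9 with the pseudocount. HXT4 lost its call (adjusted p = 0.131) when the probe sets at the floor on all arrays were kept in the fit, and kept it in the 10 other settings, the lowest adjusted p being 0.00705.

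HXT2 (YMR011W), another transporter gene known for induction at low glucose, stood at 261 on galactose B and 122 on galactose C, against 4466 and 4239 on glucose A and B. All 4 values were well above the floor. The galactose arrays were 2.14-fold apart, a distance reached by 10.3% of tested probe sets in that medium. The gene fell by 4.61 ± 0.41 on the log2 scale (SE; adjusted p = 0.0362, limma), a ratio of 24.4 with a 95% interval of 11.5 to 51.7. HXT2 lost its call among probe sets with 1 gene symbol (adjusted p = 0.0774), with 1 probe set per gene (adjusted p = 0.0677) and with the probe sets at the floor kept (adjusted p = 0.237), while the lowest adjusted p over the settings was 0.0223. Leaving out any single array leaves 1 array in a medium, which is then assumed to vary like the other medium, and no probe set at all was called. GAL2, HXT4 and HXT2 thus lost their calls, while their ratios ran from 376 to 439, from 28.4 to 39.8 and from 16.7 to 35.6 in their own directions. The adjusted p of limma then ran from 0.188 to 0.409 for GAL2, from 0.193 to 0.718 for HXT4 and from 0.188 to 0.718 for HXT2.

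HXT6 (YDR343C) and HXT7 (YDR342C) code for nearly identical high-affinity transporters, and both are read by probe sets of the family type (ending _f_at), which cross-hybridise. HXT6 had intensities of 2339 and 3386 on galactose B and C, against 7564 and 6439 on glucose A and B. HXT7 had 2232 and 3434 on galactose B and C, against 7390 and 5912 on glucose A and B. The ratio of the HXT6 to the HXT7 signal was 1.05 and 0.986 on the galactose arrays, against 1.02 and 1.09 on the glucose arrays. How far each probe set reads its own gene cannot be told from these values, so the 2 are not counted as separate evidence. For both probe sets the galactose arrays lay below the glucose arrays, with galactose C nearer to glucose. The log2 difference was -1.31 for HXT6 (95% interval -2.02 to -0.60, adjusted p = 0.237) and -1.26 for HXT7 (95% interval -2.04 to -0.47, adjusted p = 0.33), and neither passed over all tested probe sets in limma.

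Of the low-affinity transporter genes, HXT3 (YDR345C) stood at 375 and 301 on galactose B and C, against 810 and 1334 on glucose A and B. The media did not overlap, but the glucose arrays were 1.65-fold apart. Its log2 difference was -1.63 (95% interval -2.51 to -0.75), a ratio of 3.09, and it did not pass (adjusted p = 0.236, limma). HXT1 (YHR094C), known for its induction by high glucose, lay under the floor on both galactose arrays, at 11.1 and 11.9, against 26.0 and 59.5 on glucose A and B. The HXT1 glucose signal was thus low and unequal, with a distance of 2.29-fold that 2.78% of tested probe sets reached between the glucose arrays. Against the floor HXT1 was at least 2.12-fold lower in galactose, and it did not pass (adjusted p = 0.579, limma). This bound was at least 1.40 without glucose B and at least 3.21 without glucose A. With the floor at the 10th percentile, under which neither galactose value falls, the HXT1 ratio was 3.43 (log2 difference -1.78, adjusted p = 0.406, within 0.398 to 0.816 over its other settings).

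HXT5 (YHR096C), a transporter gene known for expression during slow growth and starvation, did not follow the media. It stood at 361 on galactose B and 1147 on galactose C, against 1318 on glucose A and 260 on glucose B. Galactose C and glucose A were high and both arrays with the letter B were low, so the media overlapped. The galactose arrays were 3.18-fold apart, as far as 2.22% of tested probe sets in that medium, and the glucose arrays 5.08-fold apart, as far as 0.205%. The typical distances were 1.30-fold in galactose and 1.19-fold in glucose (medians over tested probe sets). The log2 difference of 0.14 had a 95% interval of -2.37 to 2.65 (adjusted p = 0.975, limma), so a change of several-fold either way was not detectable here. Leaving out single arrays moved it between -1.04 and 1.31.

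The last members were at background. HXT8 (YJL214W) had 18.5 and 12.0 on galactose B and C, against 11.7 and 12.6 on glucose A and B, and passed the filter only because galactose B lay barely over the floor. HXT10 (YFL011W) had 9.39 and 6.14 on galactose B and C, against 8.60 and 8.53 on glucose A and B, and was not tested. For both genes a transcript difference was not detectable at this signal.

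**Figure D2:**
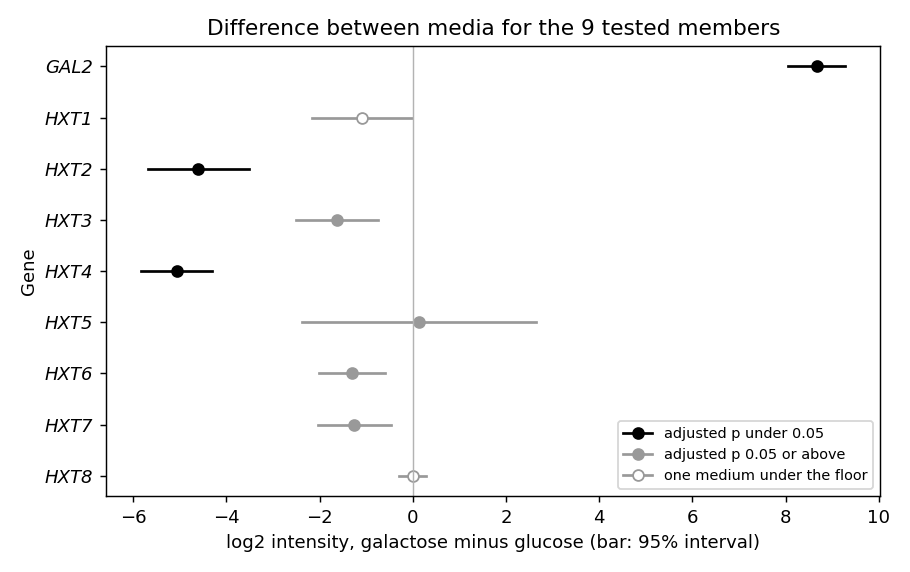
Difference of mean log2 intensity, galactose minus glucose, for the 9 tested members, with 95% intervals from limma; black marks passed an adjusted p of 0.05, grey marks did not, and open marks have both arrays of one medium under the floor. GAL2 lies at 8.66, HXT4 at -5.07 and HXT2 at -4.61, while the interval of HXT5 spans 0 widely.

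The share of each gene in the summed signal of the 10 probe sets was taken on each array. The shares of an array add up to its whole summed signal, so a large GAL2 share makes every HXT share smaller. A lower HXT share therefore need not be a lower weight among the HXT genes alone. Probe sets respond differently to the same amount of RNA, so these are shares of signal and not of transcripts, and they are compared for the same gene between arrays. GAL2 made up 71.2% and 65.6% of the family signal on galactose B and C, against 0.178% and 0.179% on glucose A and B. HXT6 and HXT7 together made up 23.4% and 27.8% on galactose B and C, against 66.8% and 64.7% on glucose A and B. Without GAL2, the summed HXT signal was 5626 and 8446 on galactose B and C, against 22348 and 19046 on glucose A and B. The mean of this HXT sum was 2.94 times as high in glucose, while the fitted HXT6 and HXT7 ratios were 2.48 and 2.39. Their weight among the HXT genes alone was thus higher in galactose, although their share of the family signal was lower. HXT2 made up 1.34% and 0.497% on galactose B and C, against 19.9% and 22.2% on glucose A and B. For each of these family shares the arrays of a medium were much closer to each other than to the other medium.

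The smaller shares followed the intensities. HXT3 contributed 1.92% and 1.22% on galactose B and C, against 3.62% and 6.99% on glucose A and B. HXT4 contributed 0.0988% and 0.110% on galactose B and C, against 3.36% and 4.10% on glucose A and B. HXT5 contributed 1.85% and 4.67% on galactose B and C, against 5.89% and 1.36% on glucose A and B, and was the only 1 of these with overlapping media. HXT1, HXT8 and HXT10 each stayed at or below 0.312% on every array. With 2 arrays per medium an exact two-sided permutation test cannot go below 0.33, so no test was made on shares.

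**Figure D3:**
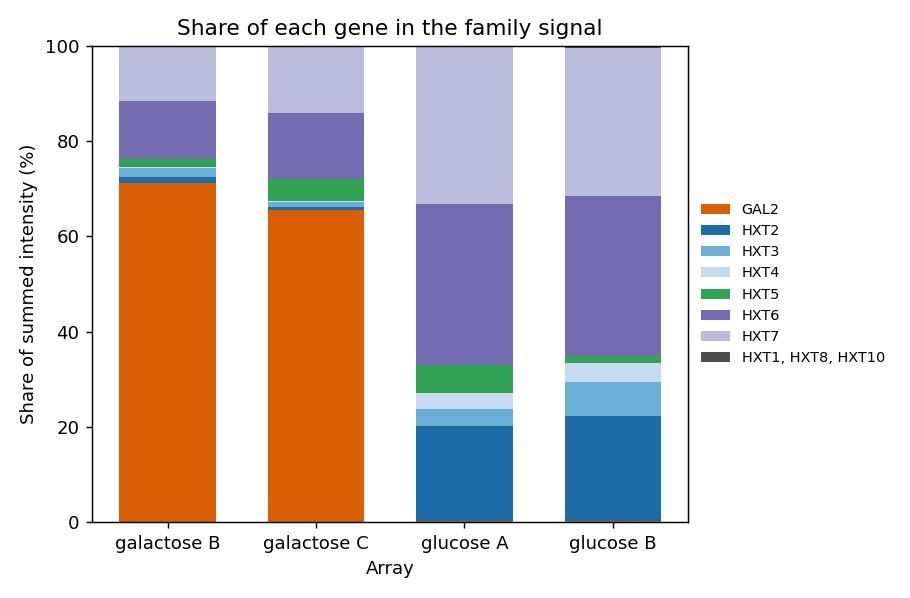
Share of each gene in the summed intensity of the 10 probe sets (%), 1 stacked bar per array. GAL2 fills 71.2% and 65.6% of the galactose bars, and HXT6 with HXT7 fill 66.8% and 64.7% of the glucose bars; HXT1, HXT8 and HXT10 are combined and barely visible.

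The shares depended on counting the HXT6 and HXT7 signals in full. The sum they were taken of was 19502 and 24560 on galactose B and C, against 22388 and 19080 on glucose A and B. The same probe sets enter this sum on every array, but GAL2 dominates it in galactose and HXT6 with HXT7 in glucose. These sums with GAL2 included were therefore not compared between media. When the HXT6 and HXT7 pair was counted once, as the mean of both probe sets, GAL2 made up 78.4% ± 3.12 of the galactose signal and 0.266% ± 0.0019 of the glucose signal (SD, n = 2 per medium). HXT6 with HXT7 then made up 14.7% ± 2.01 in galactose and 49.0% ± 1.62 in glucose (SD, n = 2 per medium).

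Several members lie side by side in the genome. By the RefSeq gene order (assembly R64), HXT5 is next to HXT1, with AHT1 between HXT1 and HXT4, and HXT7 is next to HXT6, with YDR344C between HXT6 and HXT3. In the first group both galactose arrays lay below both glucose arrays for HXT4 and for HXT1. HXT4 was called lower, while HXT1 lay under the floor in galactose and was not called. HXT5 overlapped between the media and so differed from the adjacent HXT1. Apart from members, 14 genes are immediate neighbours, and 11 of them had a tested probe set of their own by the annotation. Among them, the tRNA gene YNCM0010W is read by a probe set of the family type (ending _f_at), which may cross-hybridise. Of these 11, limma called 0 at the adjusted threshold and 0 at an unadjusted p under 0.05, where the shares over all tested probe sets were 4.29% higher and 4.33% lower, so a count of 0 in 11 is near the background. For 2 of the 11, MSR1 and IMA5, both galactose arrays lay below the glucose arrays, against 22.1%. Beside GAL2, EMP46 stood at 53.4 and 171 on galactose B and C, against 95.6 and 68.4 on glucose A and B, and SRL2 at 63.4 and 75.6, against 59.9 and 73.9. These neighbours of GAL2 overlapped between the media (adjusted p = 0.929 and 0.963). Beside HXT4, MSR1 stood at 392 and 413 on galactose B and C, against 552 and 567 on glucose A and B (adjusted p = 0.621). The neighbours were looked up after values had been seen.

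Other HXT genes were mostly not separable on these arrays. HXT13, HXT15, HXT16 and HXT17 share 1 probe set, which stood at 40.9 and 306 on galactose B and C, against 75.1 and 40.03 on glucose A and B, high on galactose C alone (adjusted p = 0.801, limma). HXT9 and HXT11 share 2 probe sets. The brighter of these stood at 37.7 and 30.9 on galactose B and C, against 33.7 and 29.4 on glucose A and B, and the other was under the floor on all arrays. HXT14 has a probe set of its own, near the floor at 30.4 and 15.7 on galactose B and C, against 18.2 and 19.8 on glucose A and B (adjusted p = 0.771). These genes were named after their values were seen.

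Genes of the wider sugar porter family outside the HXT group, which include those of the glucose sensors Snf3 and Rgt2, were read from a list. Of 13 listed sugar porter genes, 11 had a probe set of their own and 8 were tested. Limma called 0 of the 8 at the adjusted threshold and 0 at an unadjusted p under 0.05, where the background was 4.29% higher and 4.33% lower. Their log2 differences ran from -0.09 to 0.50 with a median of 0.28, beside -1.28 for the 8 tested HXT members and -0.01 for all tested probe sets. That HXT median lies between the values of HXT6 and HXT7, which are not separate evidence, and HXT8, at background, is among the 8. Only 1 of the 8, the glucose sensor gene RGT2, had media that did not overlap, with galactose the higher. Over all tested probe sets, 17.0% had the media apart with galactose higher and 22.1% with galactose lower, so 1 of 8 does not stand out. RGT2 stood at 120 and 102 on galactose B and C, against 79.9 and 76.2 on glucose A and B (adjusted p = 0.633).

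Of the 13 regulators of transporter transcription, which include Rgt1, its partners and the Mig repressors, limma called 0 after adjustment. At an unadjusted p under 0.05 there were 3 lower and 0 higher, against 4.33% and 4.29% of all tested probe sets. For 6 the galactose arrays both lay below the glucose arrays, against 22.1%. The median log2 difference was -0.40. STD1, a partner of Rgt1 in repression of HXT genes, stood at 140 and 70.5 on galactose B and C, against 455 and 473 on glucose A and B (adjusted p = 0.165). MIG2, a repressor gene itself known to be induced by glucose, lay under the floor in galactose at 8.70 and 9.07, against 36.9 and 58.7 on glucose A and B, at least 2.52-fold lower (adjusted p = 0.203). RGT1 itself, named after its values were seen, stood at 794 and 783 on galactose B and C, against 796 and 773 on glucose A and B (adjusted p = 0.998).

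Of 8 genes for the removal of transporters from the membrane, such as the ubiquitin ligase RSP5 and its adaptors, limma called 0 after adjustment and 0 at an unadjusted p under 0.05, against 4.29% higher and 4.33% lower over all tested probe sets, which is near that background. The median log2 difference was 0.19. The adaptor gene BUL1 stood at 242 and 257 on galactose B and C, against 177 and 227 on glucose A and B (adjusted p = 0.769). DOA4, a deubiquitinating enzyme gene, stood at 61.7 and 70.5, against 52.5 and 57.3 (adjusted p = 0.769).

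The galactose pathway genes served as a check of the labelled media. Of 6 genes, 5 were called higher in galactose (GAL1, GAL3, GAL7, GAL10 and GAL80), against 0.794% of all tested probe sets. The list median was 5.32 on the log2 scale, beside -0.01 for all tested probe sets. GAL1, the galactokinase gene, had a log2 difference of 7.95 and GAL80 of 2.86, beside 8.66 for GAL2. GAL3 and GAL80 each lost their call in 5 of 11 other settings. The activator gene GAL4, which did not pass, stood at 36.1 and 43.5 on galactose B and C, against 36.4 and 26.5 on glucose A and B (adjusted p = 0.734, limma).

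**Figure D4:**
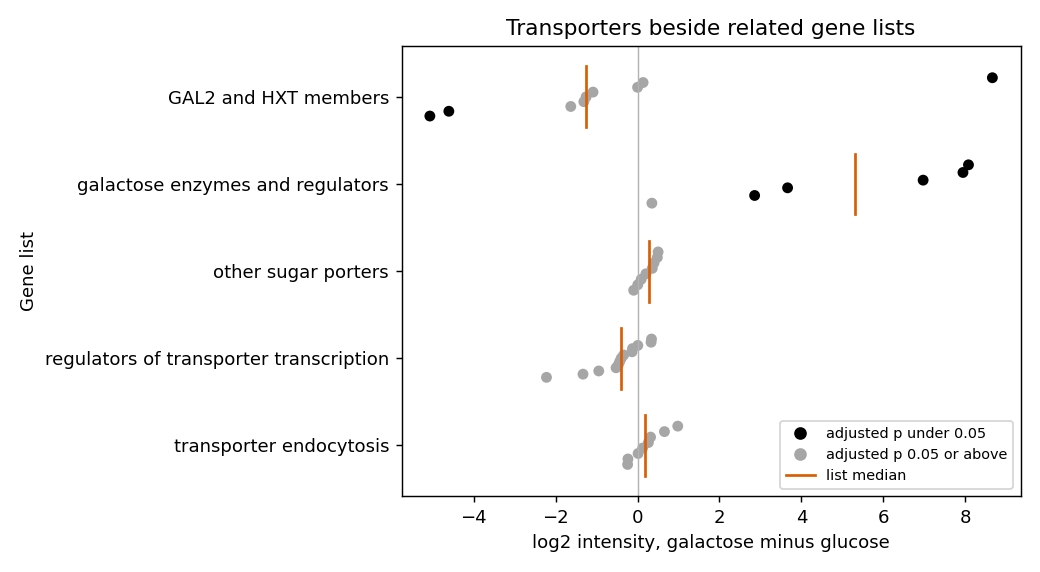
Difference of mean log2 intensity, galactose minus glucose, for each tested gene of 5 groups; black points passed an adjusted p of 0.05 and orange lines are medians. The members run from -5.07 to 8.66, the galactose genes all lie above 0, and the other sugar porters stay between -0.09 and 0.50.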

How the data were processed

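The authors deposited 1 intensity per probe set and array on a linear scale. No source used here names the summarising software, the background treatment or the scaling. The highest array median was 1.08 times the lowest, so no further scaling was applied. Array controls (60 probe sets) were dropped. The platform annotation gave 1 symbol for 6504 of the other 9275, several for 328 and none for 2443. Intensities below the 25th percentile (18.5) were raised to this floor before taking log2, and 1973 probe sets that never exceeded it were not tested. The media were compared by a linear model with a trended eBayes step (limma 3.58.1 under R 4.3.3, 4.73 total degrees of freedom), with no block because the media share only the letter B, and Benjamini-Hochberg adjustment over 7302 probe sets at 0.05. Means, SDs and shares use the intensities before the floor. A gene with several probe sets in the other lists was read by the brightest. All members are named; from other lists, those past the threshold, or else the 2 with the largest difference among those whose media did not overlap. Members and lists were chosen with earlier results of these data known. Only the limma fit was tested on simulated log2 values, with known changes placed in the brighter probe sets. The floor, the filter, the shares, the lists and the neighbours were not part of that test. Python 3.11.15, pandas 2.3.3 and matplotlib 3.10.9 made tables and figures.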

Additional observations from a re-analysis of the deposited data

How the results depend on the processing

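Under 11 other settings of the fit, GAL2 kept its call, and GAL2, HXT2, HXT3, HXT4, HXT5, HXT6 and HXT7 kept the sign of their difference, as did HXT1 and HXT8 in the 9 and 7 settings that tested them. The settings were a common median, quantile normalization, a floor at the 10th or 40th percentile, a pseudocount, filters, eBayes without trend or robust, and smaller sets for the adjustment. The count of members called lower was 2 and became 1 among probe sets with 1 gene symbol and with 1 probe set per gene, and 0 with all probe sets at the floor kept, where the added probe sets have no spread at all. With any 1 array left out the counts of members called higher and lower ranged from 0 to 0, and so did the counts over all probe sets, which were 58 and 3. Of the related lists, 5 genes were called higher in the fit used, 3 with the 10th percentile as floor, with quantile normalization, with probe sets at the floor kept, among probe sets with 1 gene symbol and with 1 probe set per gene, and 0 without any 1 array. Over all probe sets, 25 were called higher with quantile normalization, 32 with the lower floor, 4 with probe sets at the floor kept (0 lower), and 5 in each smaller set (1 lower). With HXT6 and HXT7 counted once, the shares became 78.4% in galactose and 0.266% in glucose for GAL2, 14.7% and 49.0% for HXT6 with HXT7, and, in glucose, 31.4% for HXT2 and 7.88% for HXT3. Quantile normalization gave a GAL2 share in glucose of 0.179%, against 0.178%. HXT5 changed sign when single arrays were left out. No paired analysis was possible because the media share only 1 replicate letter, B.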
